A study of Mus musculus with 8 samples.

Results

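The nuclear genes of oxidative phosphorylation were described in mouse embryonic stem cells exposed to ML-792. This compound blocks the SUMO E1 enzyme, which starts the attachment of the small protein SUMO to other proteins. They were chosen by symbol, as the protein-coding genes whose names start with Ndufa, Ndufb, Ndufc, Ndufs, Ndufv, Uqcr, Cox4i, Cox5, Cox6, Cox7, Cox8 or Atp5, together with Sdha, Sdhb, Sdhc and Sdhd and without the Ndufaf assembly factors. This rule gave 84 of the 36920 genes counted. Of these, 36 belong to complex I, 4 to complex II, 8 to complex III, 19 to complex IV and 17 to complex V. Ndufa4 and its relative Ndufa4l2 were placed with complex IV, where the Ndufa4 protein is now known to sit. Enough reads for testing were found for 82 of them, while Cox6a2 and Cox8c fell under the filter on low counts. The rule rests on names, so it also takes in genes whose products are not core subunits, such as Atp5s, which codes for a coupling factor, and Cox7a2l, a supercomplex assembly factor.

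Oxidative phosphorylation makes ATP in the inner mitochondrial membrane. Complexes I and II pass electrons from NADH and succinate to ubiquinone, complex III passes them to cytochrome c, and complex IV hands them to oxygen. Complexes I, III and IV pump protons, and complex V, the ATP synthase, uses their return flow. Most subunits are encoded in the nucleus, and a small set is encoded in mitochondrial DNA. Naive embryonic stem cells are known to use both respiration and glycolysis.

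RNA was sequenced from the R1 line of mouse embryonic stem cells, cultured in serum and LIF, in 8 libraries forming 4 groups of 2. The D3 group had received ML-792 for 48 h, and its comparison group, D1, was labelled control. The D10 group had received ML-792 for a second period of 48 h, and its comparison group, D8, was labelled control but came from cells that had been through the first exposure. The labelled dose was 2.5 mM. No untreated library of D3 or D10 was used here, so exposure and culture time cannot be told apart. The time tag of D1 replicate 2 gives day 0, against D1 in its title. Nothing in the labels says that the replicates were separate cultures, so every p-value here reflects the spread among these samples alone, which may be technical. The labels call the molecule polyA RNA but describe a stranded kit for total RNA from which ribosomal RNA was depleted.

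The libraries held 21040992 to 40835518 reads in genes, and the nuclear oxidative phosphorylation genes took 1.16% to 1.55% of them. The libraries differed in how expression varied with the GC content of genes. The Spearman correlation of a coding gene's deviation from its mean with its GC content, over 12590 genes, was -0.12 and 0.11 in the D1 libraries, -0.34 and -0.32 in D3, 0.09 and 0.59 in D8, and -0.38 and 0.03 in D10. D8 replicate 2 stood apart from the others, and the values without it are given beside the results that it moves most. The 8 embryonic stem cell markers (Pou5f1, Sox2, Nanog, Sall4, Zfp42, Esrrb, Klf4 and Utf1) were all detected. Their summed level was 3175 to 3423 CPM (counts scaled to a common library total) in D3, against 4143 to 4307 in D1, and 2496 to 2617 CPM in D10, against 4047 to 4081 in D8. Fibroblast markers, 10 genes, summed to 41.2 to 50.1 CPM in D3, against 29.8 to 33.0 in D1, and to 56.1 to 76.5 CPM in D10, against 45.0 to 58.2 in D8, and 4 of them, Col3a1, Dcn, Lum and Postn, had group means of at most 0.149 CPM. Single fibroblast markers went both ways. Of the 6 tested, 2 had a log2 fold change below 0 in D3 over D1, where the median was 1.01. In D10 over D8, 3 of the 6 were below 0 and the median was -0.12. At an adjusted p under 0.05 in edgeR's test, 1 was higher in D3 over D1. In D10 over D8, 1 was higher (Fbn1) and 1 lower (Pdgfrb), and neither passed without D8 replicate 2. In these bulk samples, fewer cells of a type and less RNA per cell cannot be told apart. The 8 markers of the 2-cell-like state, a rare state of these cultures, summed to 845 to 2736 CPM in D3, against 46.1 to 93.4 in D1, and to 594 to 607 CPM in D10, against 6.90 to 13.3 in D8. Whether shifts in these marker groups have a part in the results below was not tested.

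Promoter sequences of 68 of the 84 genes were found in RefSeq (build GRCm38.p6), as windows of 300 bases running from 250 bases before the gene's start to 50 after it. They were searched on both strands for short motifs of 3 factors known for respiratory gene promoters: NRF1 (GCGC, any base, then TGCGC), ETS family factors such as GABPA (CCGGAAGT) and YY1 (AAGATGGC). Some genes had more than 1 window, and a gene was counted once if any of its windows held the motif. The NRF1 motif was present in 17 genes (25% of 68), against 7.17% of 17492 protein-coding genes. The YY1 motif was present in 10 genes (14.7%), against 3.57% of all protein-coding genes, and the ETS motif in 5 (7.35%), against 5.69%. None of the 3 motifs contains another, and 30 of the 68 genes had at least 1 of them. Shown here are 4 promoters of genes on which the results turn, with NRF1 motifs in capitals. Ndufb4 (chr16:37654319-37654618, minus strand) has 3 such motifs and was called lower for the average of both exposures, but in neither alone. Atp5g2 (chr15:102670998-102671297, minus strand) has 1 and was called lower in D10 over D8 and for that average, but not in D3 over D1. Sdhb (chr4:140961021-140961320, plus strand) was called lower in both exposures and has no match to any of the motifs in this window. Atp5s (chr12:69724695-69724994, plus strand), listed in RefSeq under another symbol, was called higher in both exposures and also has no match.
Ndufb4: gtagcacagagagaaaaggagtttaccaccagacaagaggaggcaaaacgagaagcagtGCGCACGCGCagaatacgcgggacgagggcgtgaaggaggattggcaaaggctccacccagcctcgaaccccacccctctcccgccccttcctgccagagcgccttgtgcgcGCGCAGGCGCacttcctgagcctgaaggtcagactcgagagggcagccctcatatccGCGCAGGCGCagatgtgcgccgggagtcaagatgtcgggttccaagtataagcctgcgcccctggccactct
Atp5g2: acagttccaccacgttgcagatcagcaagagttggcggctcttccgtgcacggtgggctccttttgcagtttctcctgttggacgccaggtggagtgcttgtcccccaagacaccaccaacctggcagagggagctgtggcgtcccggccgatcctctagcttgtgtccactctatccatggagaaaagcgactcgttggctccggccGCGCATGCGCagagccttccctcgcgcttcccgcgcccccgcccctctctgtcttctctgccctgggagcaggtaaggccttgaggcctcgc
Sdhb: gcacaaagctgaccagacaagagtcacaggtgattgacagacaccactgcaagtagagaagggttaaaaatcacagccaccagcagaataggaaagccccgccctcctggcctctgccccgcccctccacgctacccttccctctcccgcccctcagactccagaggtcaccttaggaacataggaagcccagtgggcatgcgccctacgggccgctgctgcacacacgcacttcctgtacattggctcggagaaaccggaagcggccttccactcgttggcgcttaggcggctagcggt
Atp5s: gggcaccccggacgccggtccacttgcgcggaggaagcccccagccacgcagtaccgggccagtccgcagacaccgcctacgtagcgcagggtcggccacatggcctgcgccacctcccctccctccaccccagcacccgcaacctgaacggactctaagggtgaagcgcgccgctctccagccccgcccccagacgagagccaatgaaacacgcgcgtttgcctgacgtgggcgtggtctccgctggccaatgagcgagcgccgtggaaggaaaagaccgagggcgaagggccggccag

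Values of the genes with and without an NRF1 motif can be set side by side. The median log2 fold change of D3 over D1 was -0.23 for the 17 genes with the motif and -0.18 for the 51 without it. For D10 over D8 it was -0.28 with the motif and -0.25 without it. A match describes these letters in this window only and is not a binding site, and the difference between the 2 groups of genes was not tested.

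The genes differed widely in level. On the RPKM scale, CPM divided by exon length, which allows genes of different length to be compared, the highest were Atp5b, the catalytic beta subunit of the ATP synthase, with a mean of 540 RPKM over the 8 libraries, and Atp5a1, its alpha subunit, with 430 RPKM. Cox8a followed with 376 RPKM and Cox4i1 with 339 RPKM, both subunits of complex IV. In complex I the highest were Ndufb6 with 137 RPKM and Ndufa1 with 107 RPKM. In complex II they were Sdhd with 127 RPKM and Sdha with 71.2 RPKM, and in complex III Uqcr10 with 209 RPKM and Uqcr11 with 164 RPKM. How reads with several matches in the genome were counted is not given in the sources that were used, and many of these genes have processed pseudogenes, so these levels are uncertain where copies share reads. Of the 84 genes, 34 overlap another annotated gene, 6 of them on the same strand and 29 on the opposite strand.

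Most of these genes were slightly lower after each exposure, and few single genes passed the test. After the first exposure the log2 fold change of D3 over D1 was below 0 for 72 of 82 genes, against 50.2% of all 19173 genes tested. Its median was -0.19, against -0.00 over all genes tested. After the second exposure D10 over D8 was also below 0 for 72 of 82, against 47.7% of all genes tested, with a median of -0.26, against 0.03. Both values were below 0 for 67 of the genes, and both were above 0 for 5, namely Atp5s, Cox7b2, Cox6b2, Ndufa4 and Cox7c. Over all genes tested, 38.1% were below 0 in both exposures. The sizes were small: 76 of the 82 lay within 0.5 of 0 on the log2 scale for D3 over D1, and 69 for D10 over D8.

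The test was edgeR's quasi-likelihood test with Benjamini-Hochberg adjustment over all 19173 genes, with calls at an adjusted p under 0.05. In D3 against D1 it called 1 of the 82 genes higher and 2 lower, where 7.92% of all genes tested were called higher and 5.1% lower. In D10 against D8 it called 1 higher and 7 lower, where 9.27% of all genes tested were called higher and 7.65% lower. The share of these genes called lower was 2.44% after the first exposure and 8.54% after the second, so it was below the background in the first and near it in the second, and the share called higher, 1.22%, was below the background in both. Called in both exposures were Atp5s, which was higher, and Sdhb and Cox4i2, which were lower; of all genes tested, 6.16% were called higher in both and 3.81% lower in both. The values of single libraries show the pattern without the test. Both D3 libraries were below both D1 libraries for 50 genes (61%), against 32% of all genes tested, and above both for 5, against 32.8%. Both D10 libraries were below both D8 libraries for 40 genes (48.8%), against 27.6%, and above both for 5, against 27.2%.

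With the replicate number as a block, 2 genes were called higher and 5 lower in D3 against D1, where 12.5% and 9.29% of all genes tested were. In D10 against D8 the block gave 3 higher and 24 lower, where 14.6% and 13% of all genes tested were. In the fit without the block, calls for the second exposure depended on single libraries. They were most without D8 replicate 1 and fewest without D10 replicate 1, both among these genes and over all genes tested. Calls among these genes also fell without D8 replicate 2. The median of D10 over D8 was -0.15 without D8 replicate 2 and -0.44 without D8 replicate 1, so its direction was the same with either control library alone.

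**Figure D1:**
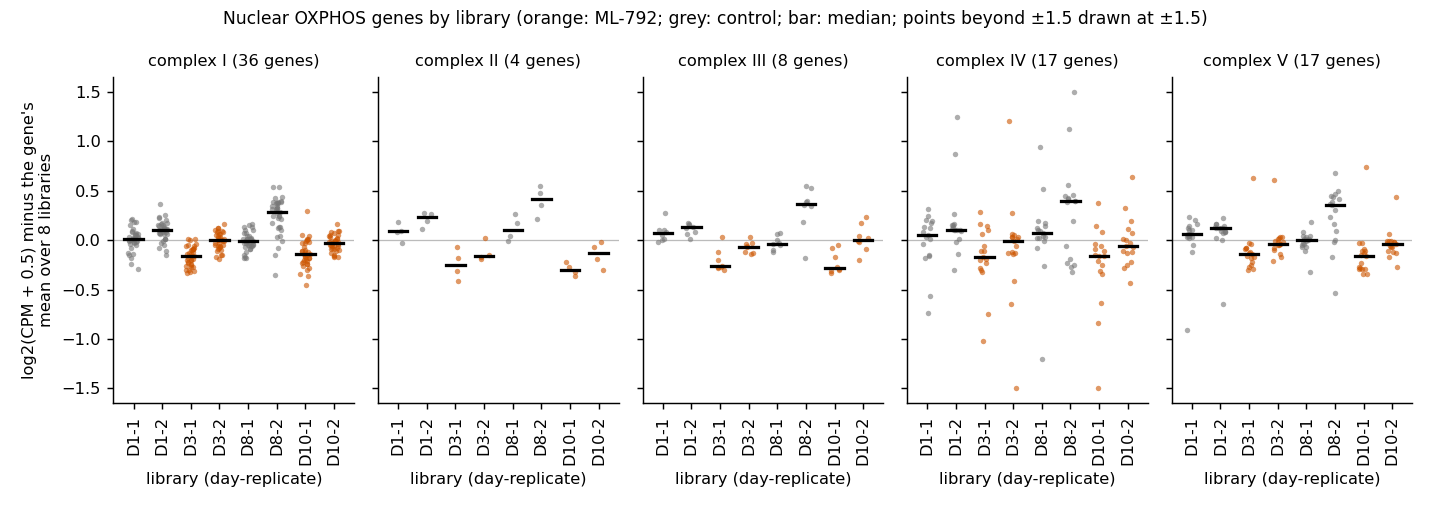
Each point is 1 gene in 1 library, as its log2(CPM + 0.5) minus the gene's mean over the 8 libraries, for the 82 genes tested, by complex. Bars are medians; orange marks ML-792 libraries and grey marks controls. In complex II every ML-792 median lies below every control median, and D8 replicate 2 is the highest library in all 5 complexes.

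Averaging both exposures uses all 8 libraries and gave more calls. The mean response was called higher for 3 genes and lower for 13, which is 3.66% and 15.9% of the 82, against 16.3% and 14.2% of all genes tested. Its median was -0.21, against 0.01 over all genes tested, and it was below 0 for 72 of 82, against 49.3% of all genes tested. With the replicate block it was called higher for 5 and lower for 32, against 21.5% and 18.7% of all genes tested. All 4 ML-792 libraries were below all 4 control libraries for 28 genes (34.1%), against 14.9% of all genes tested, and above them for 3, against 16.1%. The count of 16 calls was 10 or fewer on leaving out a D1 library (10 for replicate 1 and 6 for replicate 2), a D3 library (4 for replicate 1 and 8 for replicate 2) or D10 replicate 1 (8). It was highest without D8 replicate 1, where calls over all genes tested were also the most of the leave-one-out fits.

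The 2 exposures share no library, and each gene's value in one can be set beside its value in the other. Across the 82 genes the Pearson correlation of the log2 fold changes was 0.95 and the Spearman correlation 0.75. Without Atp5s, Cox4i2, Ndufa4l2 and Cox7b2, which have the largest changes, Pearson's value was 0.75. These are descriptions across genes, which are not independent replicates and share library depth and base composition. No gene passed the test of the difference between the 2 responses, with an adjusted p under 0.05, and none of all genes tested did (0%). At an unadjusted p under 0.05, edgeR's test gave 0 of the 82 for this difference. Of all 19173 genes tested, it gave 296 higher and 279 lower. DESeq2's Wald test also called 0 of the 82.

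**Figure D2:**
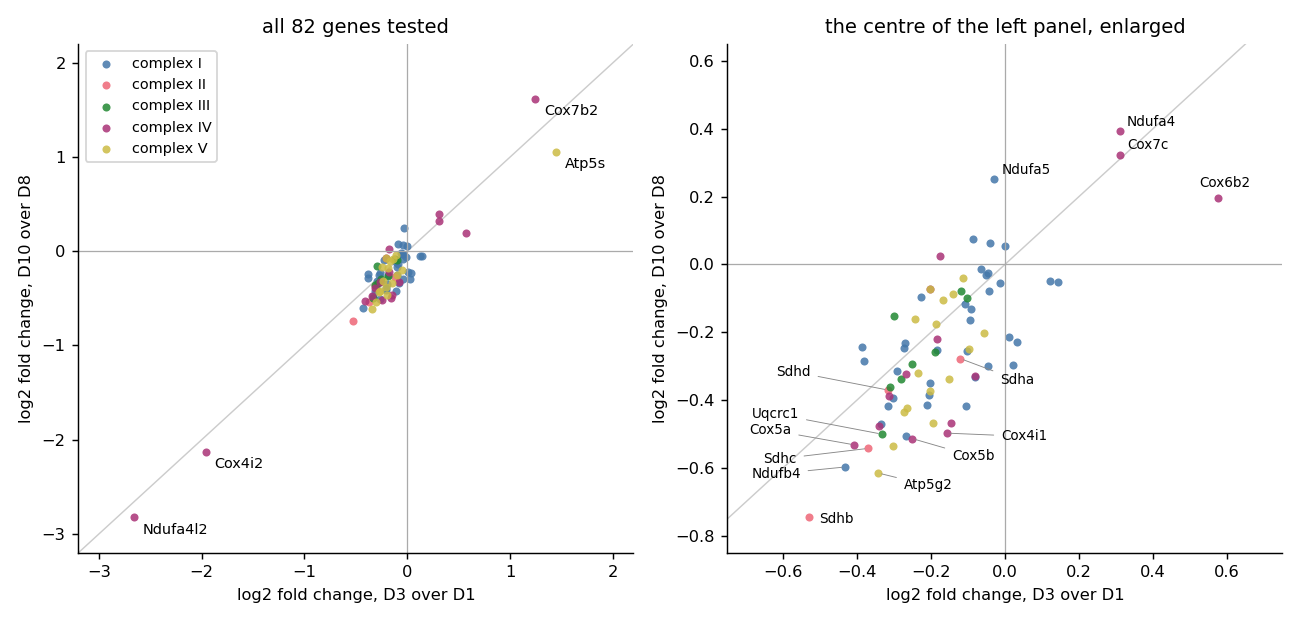
Log2 fold change of D3 over D1 (horizontal) against D10 over D8 (vertical) for the 82 genes tested, coloured by complex; the right panel enlarges the centre of the left. Of the genes, 67 lie below 0 on both axes and 5 above 0 on both, and the grey diagonal marks equal change.

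Between the 2 groups of control cells, D8 over D1 had a median of 0.09 over these genes, with 63 of 82 above 0, and 0 were called in either direction, against 0.141% of all genes tested called higher and 0.0365% lower. At an unadjusted p under 0.05 in edgeR's test there were also 0 of the 82. Of all 19173 genes tested, 1410 were then higher and 901 lower. DESeq2 called 0 of the 82. The sign of the median rested on D8 replicate 2: it was -0.07 without that library and 0.27 without D8 replicate 1.

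Complex I takes electrons from NADH. Its 36 genes had a median log2 fold change of -0.10 in D3 over D1 and of -0.24 in D10 over D8, and none was called in either comparison. The second median was -0.09 when D8 replicate 2 was left out and -0.40 when D8 replicate 1 was, and it was -0.16 in the absence of D10 replicate 1. The first was -0.21 without D1 replicate 1 or D3 replicate 2. The D3 libraries differed in the median log2 deviation of these genes from their means over the 8 libraries. It was -0.16 in D3 replicate 1 and 0.005 in D3 replicate 2, against 0.02 and 0.10 in the D1 libraries. The summed level of the complex was 1818 ± 144 RPKM in D3, against 1966 ± 93.7 RPKM in D1, and 1825 ± 90.2 RPKM in D10, against 2075 ± 269 RPKM in D8 (SD, n = 2 each). The libraries of treated and control cells overlapped in both exposures, by little in the second.

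Ndufb4, an accessory subunit of the membrane arm, was the complex I gene with the most negative change in both exposures. It had 36.2 and 41.4 CPM in the D3 libraries, against 46.7 and 57.9 CPM in D1, and 32.4 and 40.3 CPM in D10, against 49.6 and 60.4 CPM in D8. All 4 ML-792 libraries were below all 4 controls. Its log2 fold change was -0.43 ± 0.18 (SE) in D3 over D1 (adjusted p = 0.156) and -0.60 ± 0.18 in D10 over D8 (adjusted p = 0.0529), and its mean response of -0.51 ± 0.13 was called (adjusted p = 0.0156). That call did not hold once D1 replicate 2, D3 replicate 1 or D10 replicate 1 was left out. The mean response was also called lower for Ndufa9, at -0.35, and Ndufv3, at -0.40, which are named here only to complete the count of 3 in complex I.

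Some complex I genes had nearly level values. Ndufb6 had 82.1 and 91.1 CPM in D3, against 79.2 and 94.1 CPM in D1, and 91.0 and 101 CPM in D10, against 86.4 and 98.3 CPM in D8. Ndufa1 had 40.0 and 47.8 CPM in D3, against 44.5 and 47.3 CPM in D1, and 46.3 and 43.1 CPM in D10, against 44.4 and 45.8 CPM in D8. The libraries of treated and control cells overlapped for both genes, and neither was called.

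Complex II, succinate dehydrogenase, is also an enzyme of the TCA cycle and is the only one of the 5 complexes with no subunit in mitochondrial DNA. Its 4 genes had the most negative medians of the 5 complexes, at -0.34 in D3 over D1 and -0.46 in D10 over D8. Without D8 replicate 2, all 4 changes in D10 over D8 were nearer to 0, at -0.63 for Sdhb, -0.42 for Sdhc, -0.24 for Sdhd and -0.19 for Sdha. For each of the 4, both treated libraries were below both control libraries in both exposures, where 32% and 27.6% of all genes tested lay that way. Their summed level was 257 ± 11.8 RPKM in D3, against 319 ± 17.1 RPKM in D1, and 251 ± 24.5 RPKM in D10, against 340 ± 47.9 RPKM in D8 (SD, n = 2 each). Whether complex II differed from the other complexes was not tested.

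Sdhb, the iron-sulfur subunit that carries electrons towards ubiquinone, had the largest fall of the 4. It had 79.1 and 92.5 CPM in D3, against 120 and 128 CPM in D1, and 81.9 and 85.6 CPM in D10, against 127 and 154 CPM in D8. The 4 ML-792 libraries lay within a narrow range, well below the lowest control. Sdhb fell in both exposures, with a log2 fold change of -0.53 ± 0.15 in D3 over D1 (adjusted p = 0.0451) and of -0.74 ± 0.15 in D10 over D8 (adjusted p = 0.0113). Its mean response was -0.64 ± 0.10 (adjusted p = 0.00223) and was called without each library in turn. The first call was lost on leaving out any library but the D8 ones, and the second on leaving out D10 replicate 1.

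Sdhc, a membrane anchor, had 117 and 130 CPM in D3, against 143 and 175 CPM in D1, and 125 and 127 CPM in D10, against 165 and 203 CPM in D8. All 4 treated libraries were below all 4 controls. It was called in D10 over D8, at -0.54 ± 0.16 (adjusted p = 0.0453), and not in D3 over D1, at -0.37 ± 0.16 (adjusted p = 0.161). Without D8 replicate 2, and without 5 of the other libraries in turn, the call in D10 was lost.

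Sdhd, the other anchor, had 136 and 139 CPM in D3, against 165 and 177 CPM in D1, and 124 and 152 CPM in D10, against 159 and 198 CPM in D8. Sdha, the flavoprotein subunit that oxidises succinate, had 278 and 297 CPM in D3, against 310 and 315 CPM in D1, and 241 and 278 CPM in D10, against 290 and 340 CPM in D8. Neither passed the test in a single exposure, and the mean response was called lower for Sdhd, at -0.34 (adjusted p = 0.0448), but not for Sdha, at -0.20 (adjusted p = 0.153).

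Complex III, the cytochrome bc1 complex, had 8 genes, all with negative log2 fold changes in both exposures and none called in either. Their medians were -0.27 in D3 over D1 and -0.28 in D10 over D8. Without D8 replicate 2 the second median was -0.11, and 2 of the 8, Uqcr10 (0.02) and Uqcrq (0.09), were then above 0. It was -0.15 without D10 replicate 1, -0.51 without D10 replicate 2 and -0.47 without D8 replicate 1. Both D3 libraries were below both D1 libraries for 7 of the 8, against 32% of all genes tested, and both D10 libraries were below both D8 libraries for 2, against 27.6%. Uqcrc1, a core protein of the complex, had 233 and 257 CPM in D3, against 303 and 314 CPM in D1, and 228 and 265 CPM in D10, against 284 and 414 CPM in D8. It was the only gene of the complex called for the mean response, at -0.42 ± 0.13 (adjusted p = 0.04), and the call was lost without any 1 of 5 libraries. The other core protein gene, Uqcrc2, had 180 and 212 CPM in D3, against 236 and 250 CPM in D1, and 181 and 220 CPM in D10, against 232 and 284 CPM in D8. Its treated libraries were below all controls, and its mean response was -0.34 (adjusted p = 0.0524).

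Complex IV, cytochrome c oxidase, held the widest range, since it has alternative isoform genes that are known for restricted expression in adult tissues. The medians of its 17 tested genes were -0.18 in D3 over D1 and -0.33 in D10 over D8. In D3 over D1, 1 was called lower, and in D10 over D8, 4 were, where 5.1% and 7.65% of all genes tested were called lower. Without D8 replicate 2, none of the 4 calls held and the median of D10 over D8 was -0.24, and without D10 replicate 1 it was -0.17. Without D8 replicate 1 it was -0.54. The median of D3 over D1 was -0.12 without D3 replicate 1, -0.28 without D3 replicate 2 and -0.06 with the correction for GC and length. Cox5a and Cox5b, both subunits with one common form, were among these 4.

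Cox5a had 158 and 189 CPM in D3, against 223 and 237 CPM in D1, and 155 and 170 CPM in D10, against 212 and 258 CPM in D8. All treated libraries were below all controls. Its log2 fold change was -0.41 ± 0.15 in D3 over D1 (adjusted p = 0.114) and -0.53 ± 0.15 in D10 over D8 (adjusted p = 0.0424). Cox5b had 107 and 115 CPM in D3, against 137 and 126 CPM in D1, and 117 and 103 CPM in D10, against 142 and 172 CPM in D8. It changed by -0.25 ± 0.14 (adjusted p = 0.296) in the first exposure and by -0.51 ± 0.14 (adjusted p = 0.0413) in the second. The calls of both genes in D10 were lost without any 1 of 7 libraries, D8 replicate 2 among them.

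Cox4i2 and Ndufa4l2 had the largest falls of all these genes, at low levels. Both are isoform genes known to respond to low oxygen in other cells. Cox4i2 lies at chr2:152754173-152765037 on the plus strand and Ndufa4l2 at chr10:127514967-127517154 on the plus strand (mm10). Cox4i2 had 0.421 and 0.488 CPM in D3, against 1.20 and 2.33 CPM in D1, and 0.365 and 0.642 CPM in D10, against 1.70 and 2.86 CPM in D8. These values stand for 9 to 27 reads in each ML-792 library and 25 to 89 reads in each control. Cox4i2 fell in both exposures, with log2 fold changes of -1.96 ± 0.50 (adjusted p = 0.035) in D3 over D1 and -2.13 ± 0.47 (adjusted p = 0.0182) in D10 over D8. The first call was lost without any 1 of the D1 and D3 libraries, and the second without D8 replicate 2 or D10 replicate 1, while the mean response of -2.05 ± 0.34 (adjusted p = 0.00269) was called without each library in turn.

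Ndufa4l2 had 1.01 and 0.557 CPM in D3, against 3.01 and 6.74 CPM in D1, and 0.284 and 2.31 CPM in D10, against 5.40 and 14.03 CPM in D8. The treated libraries were below every control, but the 2 libraries of a group differed widely, most of all in D10. The log2 fold change was -2.66 ± 0.85 in D3 over D1 (adjusted p = 0.0756) and -2.83 ± 0.80 in D10 over D8 (adjusted p = 0.0424), and the second was lost without D8 replicate 2 and without 5 other libraries in turn. The gene overlaps Shmt2, a gene of mitochondrial one-carbon metabolism on the opposite strand, which also fell, at -0.61 in D3 over D1 (adjusted p = 0.0222) and -0.66 in D10 over D8 (adjusted p = 0.0137). Since the strand setting of the counting is not given, reads of the 2 genes cannot be told apart with certainty.

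The common form of each subunit can be set beside its restricted isoform per length. Cox4i1 lay between 280 and 460 RPKM in the 8 libraries, and Cox4i2 between 0.463 and 3.63 RPKM. Cox6a1 lay between 172 and 294 RPKM, while Cox6a2, the heart and muscle form, had at most 5 reads in a library and reached 0.228 RPKM. Cox7a2 lay between 183 and 237 RPKM, and Cox7a1, another heart and muscle form, between 9.77 and 20.99 RPKM. Cox8a averaged 376 RPKM, and Cox8c, with at most 14 reads in a library, averaged 0.567 RPKM. In each of these pairs the restricted form was far below the common one in every library.

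The testis isoform Cox6b2 was higher than the restricted forms above, but it was also far below its common form. It lay between 22.1 and 46.8 RPKM, against 221 to 354 RPKM for the common form Cox6b1. Cox6b2 had 50.4 and 42.3 CPM in D3, against 24.5 and 37.5 CPM in D1, and 45.6 and 51.8 CPM in D10, against 45.6 and 39.5 CPM in D8. The treated libraries were above their controls in both pairs, by very little in D10 replicate 1. Its log2 fold change was 0.57 ± 0.21 in D3 over D1 (adjusted p = 0.112) and 0.20 ± 0.21 in D10 over D8 (adjusted p = 0.562), and its mean response was 0.39 (adjusted p = 0.0811). With the correction for GC and length it was called higher in D3 over D1, at 0.77 (adjusted p = 0.0477), and for the mean response (adjusted p = 0.0254), and with the replicate block for the mean response (adjusted p = 0.0459). Cox6b1 had the opposite sign and was called lower for the mean response, at -0.35 ± 0.10 (adjusted p = 0.0285).

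Cox7b2, another testis isoform, had the highest log2 fold change of all these genes in D10 over D8, at a very low level. It had 1.01 and 2.86 CPM in D3, against 0.478 and 1.12 CPM in D1, and 0.892 and 1.76 CPM in D10, against 0.131 and 0.740 CPM in D8, which stand for 4 to 82 reads in a library. The groups overlapped in D3 and D1 and not in D10 and D8. The log2 fold change was 1.24 ± 0.74 in D3 over D1 (adjusted p = 0.318) and 1.62 ± 0.79 in D10 over D8 (adjusted p = 0.197). With the replicate block it was called higher in both, at 1.25 (adjusted p = 0.0444) and 1.71 (adjusted p = 0.0133).

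**Figure D3:**
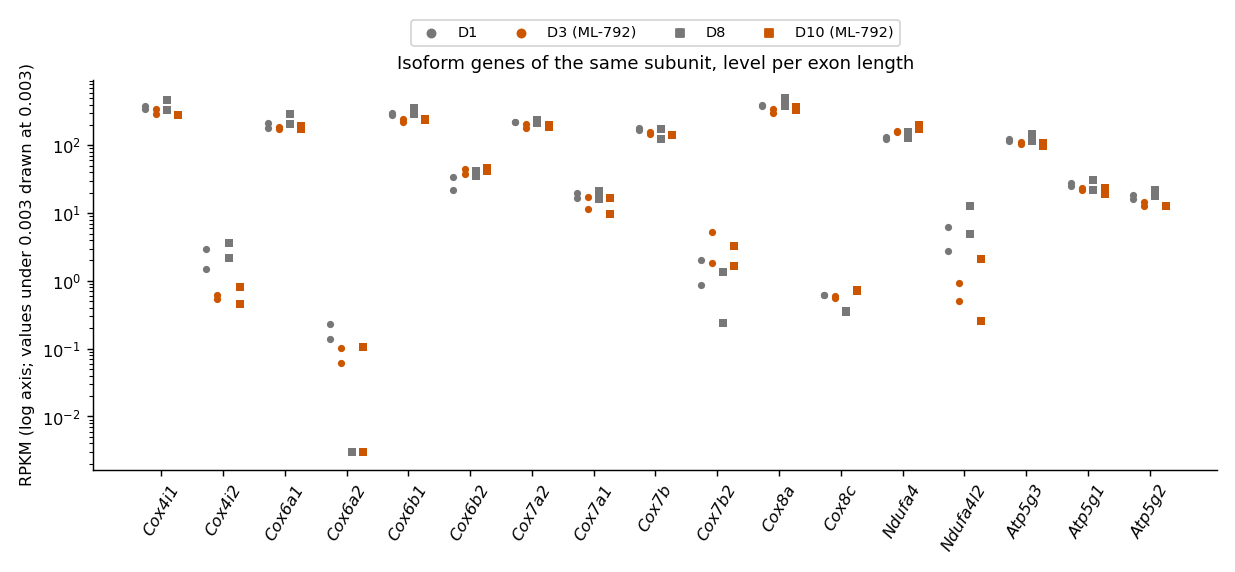
RPKM (log axis) of common and restricted isoform genes of the same subunit in each library, by group; circles are D1 and D3, squares D8 and D10, and orange marks ML-792. Cox4i2 and Ndufa4l2 are low and lower still in ML-792 libraries, whereas Cox4i1, Cox6a1, Cox6b1, Cox7a2, Cox7b, Cox8a and Ndufa4 stay above 100 RPKM in every library.

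Ndufa4 and Cox7c were the genes of complex IV with a positive mean response that passed the test. Ndufa4 had 227 and 216 CPM in D3, against 186 and 172 CPM in D1, and 274 and 241 CPM in D10, against 215 and 177 CPM in D8. Cox7c had 126 and 137 CPM in D3, against 100 and 112 CPM in D1, and 119 and 121 CPM in D10, against 94.0 and 98.3 CPM in D8. For both genes all 4 treated libraries were above all 4 controls. The mean response was 0.35 ± 0.10 for Ndufa4 (adjusted p = 0.0284) and 0.32 ± 0.09 for Cox7c (adjusted p = 0.0246), and each of these calls was lost without any 1 of 6 libraries. With the replicate block Ndufa4 was also called higher in D10 over D8, at 0.40 (adjusted p = 0.025). Both genes are AT-rich, with a GC content of 40.3% for Ndufa4 and 38.4% for Cox7c, and Cox7c overlaps another annotated gene, Gm22574, on its own strand. After correction of each library for GC and length, the mean response was 0.00 for Ndufa4 (adjusted p = 0.976) and -0.13 for Cox7c (adjusted p = 0.648), so neither rise was called and that of Cox7c changed sign.

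Complex V, the ATP synthase, had 17 genes with medians of -0.20 in D3 over D1 and -0.25 in D10 over D8. The second median was -0.14 without D8 replicate 2 and -0.47 without D8 replicate 1. Of these, 16 had a negative log2 fold change in each exposure, and the exception was Atp5s both times. Atp5b had 2015 and 2199 CPM in D3, against 2319 and 2532 CPM in D1, and 1848 and 2177 CPM in D10, against 2198 and 3019 CPM in D8. Atp5a1 had 1171 and 1179 CPM in D3, against 1367 and 1454 CPM in D1, and 1085 and 1315 CPM in D10, against 1342 and 1875 CPM in D8. The treated libraries of both genes were below their own controls, and neither gene was called.

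The c subunit, which forms the rotating ring, is made from 3 genes that code for the same mature protein. Atp5g3 was the highest of them, at a mean of 116 RPKM, followed by Atp5g1 at 24.2 RPKM and Atp5g2 at 15.9 RPKM. Atp5g2 had 21.2 and 24.4 CPM in D3, against 27.3 and 30.5 CPM in D1, and 21.6 and 21.6 CPM in D10, against 29.8 and 36.4 CPM in D8, with all treated libraries below all controls. It was called in D10 over D8, at -0.61 ± 0.16 (adjusted p = 0.0347), and not in D3 over D1, at -0.34 ± 0.16 (adjusted p = 0.214). Atp5g2 has a GC content of 63.3%, and with the correction for GC and length its change in D10 over D8 was -0.29 (adjusted p = 0.185). The call was also lost without D8 replicate 2. Atp5g3 changed by -0.15 and -0.34, and Atp5g1 by -0.23 and -0.32, in the first and the second exposure, and neither was called.

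Atp5s, the coupling factor, was called higher in both exposures, and in the fit without a replicate block or a correction for base composition no other of these genes was called higher in either. It had 20.04 and 19.82 CPM in D3, against 6.55 and 8.01 CPM in D1, and 21.7 and 17.5 CPM in D10, against 10.1 and 8.69 CPM in D8. No control library reached the lowest treated one. Its log2 fold change was 1.45 ± 0.20 in D3 over D1 (adjusted p = 0.00421) and 1.06 ± 0.20 in D10 over D8 (adjusted p = 0.00955). The call in D3 over D1 was kept without each library in turn. The call in D10 over D8 was lost without D8 replicate 2, without D10 replicate 1, and with the correction for GC and length, where the change was 0.59 (adjusted p = 0.0852). Its mean response of 1.25 ± 0.14 (adjusted p = 0.000462) was called in all of the leave-one-out fits.

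**Figure D4:**
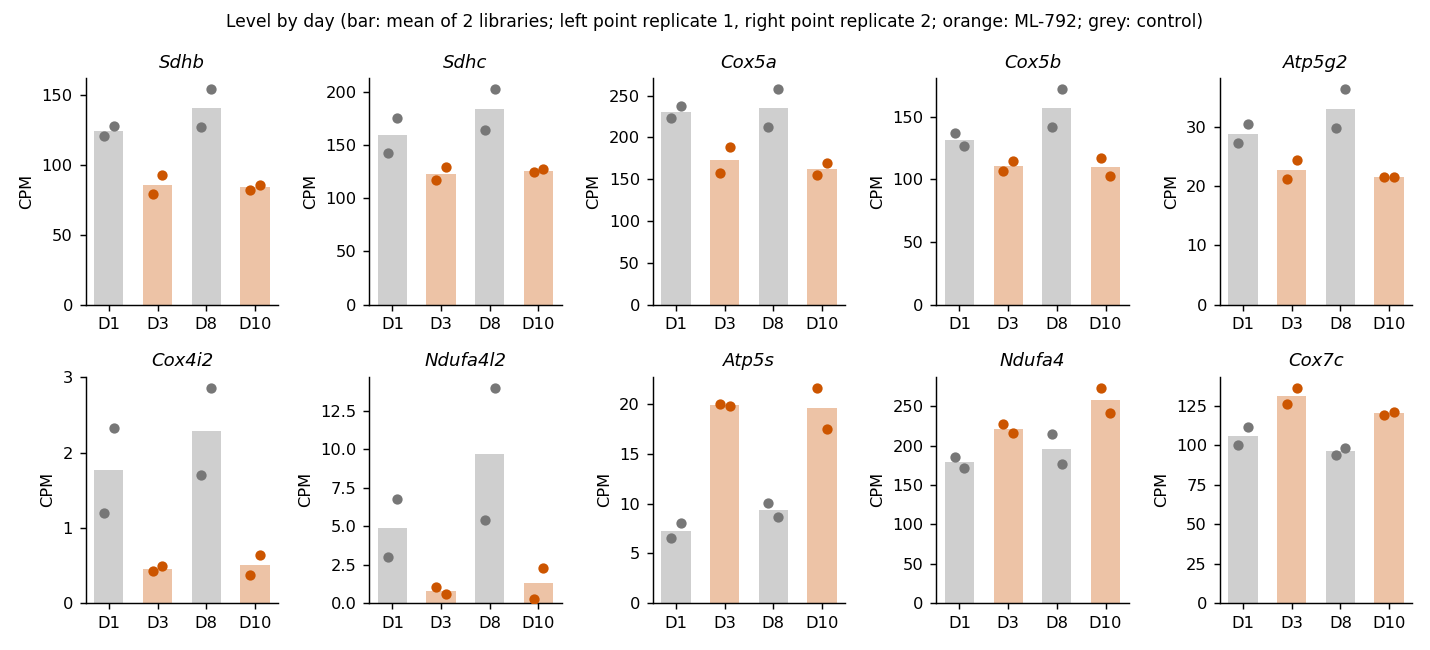
CPM of 10 genes by group in order of day, with the mean of 2 libraries as a bar starting at 0 and each library as a point; orange marks ML-792. The bars of Sdhb, Sdhc, Cox5a, Cox5b, Atp5g2, Cox4i2 and Ndufa4l2 are lower in D3 and D10 than in D1 and D8, and those of Atp5s, Ndufa4 and Cox7c are higher.

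The shift was also described by base composition, whose part in it was not tested. The 43 tested genes with a GC content of 50% or more had medians of -0.21 in D3 over D1 and -0.30 in D10 over D8, where all tested genes of that range had -0.10 and -0.18. The 39 genes under 50% had medians of -0.12 and -0.20, where all tested genes of that range had 0.08 and 0.19. In both ranges the medians of the oxidative phosphorylation genes were below those of all tested genes. With each library corrected for GC and length, the medians of all 82 were -0.11 in D3 over D1 and -0.24 in D10 over D8, and 4 genes were called in the first (2 higher, 2 lower) and 12 in the second (0 higher, 12 lower). The background was then 9.71% higher and 7.65% lower in the first exposure, and 10.7% higher and 8.96% lower in the second. Sdhb and Cox4i2 remained called lower in both exposures under that correction, and the medians of complex II were then -0.31 and -0.47.

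The subunits encoded in mitochondrial DNA had higher values in ML-792 libraries, but not after correction for GC content and length. Of 11 such genes in the table, 7 had enough reads for testing, and the other 4 (mt-Atp6, mt-Co2, mt-Co3 and mt-Nd3) had at most 6 reads in a library. How reads with several matches in the genome were counted is not given, so these low counts cannot be taken as low expression. All 7 had a log2 fold change above 0 in both exposures, with medians of 0.34 in D3 over D1 and 0.18 in D10 over D8, and none was called. With the correction for GC and length the medians were 0.01 and -0.50, so the direction of the second changed, and 1 was called lower in D10 over D8; without D10 replicate 1 the second median was -0.03. mt-Co1, the catalytic subunit of complex IV, averaged 7314 CPM in D3, against 6586 CPM in D1, and 7301 CPM in D10, against 6729 CPM in D8. The largest change was that of mt-Nd4, a complex I subunit, at 0.52 ± 0.24 in D3 over D1 (adjusted p = 0.199).

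Other genes of the pathway were taken from lists chosen with earlier results of these data known. Their counts stand beside the shares of all genes tested, of which 7.92% were called higher and 5.1% lower in D3 over D1, and 9.27% higher and 7.65% lower in D10 over D8. Of 18 complex I assembly factors, 1 was called higher and 3 lower in D3 over D1, and 2 higher and 5 lower in D10 over D8. Acad9, an assembly factor related to acyl-CoA dehydrogenases, rose in both, with log2 fold changes of 1.03 ± 0.12 (adjusted p = 0.00259) and 0.88 ± 0.12 (adjusted p = 0.00289). Ndufaf5 fell in both, at -0.74 in the first exposure and -0.63 in the second, and so did Foxred1, at -0.51 and -0.60. The 5 calls of lower genes in D10 over D8 were 2 without D8 replicate 2, which did not include Ndufaf5, and 0 without D10 replicate 1. Of 10 factors for complexes II and III, 1 was called lower in each exposure, Sdhaf4, which helps to mature succinate dehydrogenase, at -0.57 and -0.65. Of 23 complex IV assembly factors, none was called in D3 over D1 and 1, Cox18, was called lower in D10 over D8, at -0.77. Of 6 ATP synthase assembly and inhibitor genes, Tmem70 was called higher in D10 over D8, at 0.48. Without D8 replicate 2, and also without D10 replicate 1, the calls of Sdhaf4, Cox18 and Tmem70 in D10 over D8 were lost. In D3 over D1, the calls of Ndufaf5, Foxred1 and Sdhaf4 were lost without any 1 of the D1 and D3 libraries.

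Among 21 genes of electron carriers and of enzymes that feed ubiquinone, 2 were called lower in D3 over D1, and 1 higher and 2 lower in D10 over D8. Dhodh, an enzyme of pyrimidine synthesis that passes electrons to ubiquinone, fell in both, at -0.84 and -0.89, and its call in D10 over D8 held without each library in turn. Of 19 TCA cycle genes, 2 were called lower in D3 over D1 (Idh3b and Pdha1) and 1 in D10 over D8 (Fh1), a call lost without D8 replicate 2. The calls of Idh3b and Pdha1 were lost without any 1 of the D1 and D3 libraries. The glycolysis list had more calls: of 23 rows, 1 was called higher and 3 lower in D3 over D1, where 5.1% of all genes tested were called lower, and 16 were called lower in D10 over D8, where 7.65% were, with medians of -0.50 and -0.84. Hk1, a hexokinase, fell in both exposures, at -1.23 and -1.97. Its first call was lost without any 1 of the D1 and D3 libraries. Between the control groups, D8 over D1 had a median of 0.51 over this list, with all 23 above 0 and 0 called. Whether this difference between the control groups has a part in the lower median of D10 over D8 was not tested. The 16 were 4 without D8 replicate 2 and 3 without D10 replicate 1, and the median of D10 over D8 was -0.46 without D8 replicate 2.

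Ribosomal protein genes also had medians below 0. The 83 cytosolic ones had medians of -0.11 in D3 over D1 and -0.24 in D10 over D8, with 72 of them below 0 in each. Of these 83, 1 was called higher in each exposure, Rpl39l, at 1.62 (adjusted p = 0.0142) and 2.79 (adjusted p = 0.00202). Rpl37a was called lower in D10 over D8, at -0.50 (adjusted p = 0.0499), a call lost without any 1 of 7 libraries. The 77 tested mitochondrial ones had medians of -0.14 and -0.15, with 1 called lower in each exposure, Mrps16. With the correction for GC and length the medians of the cytosolic list were -0.03 and -0.18, and those of the mitochondrial list -0.11 and -0.12. Without D8 replicate 2 the medians of D10 over D8 were -0.12 and -0.06, and the call of Mrps16 there was lost. The call of Mrps16 in D3 over D1 was lost without any 1 of the D1 and D3 libraries. Whether the oxidative phosphorylation genes differ from either list was not tested. None of 23 genes of mitochondrial DNA expression was called in either exposure.

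Of 20 tested regulators of respiratory genes, none was called in D3 over D1, and 1 was called higher and 3 lower in D10 over D8, where 9.27% of all genes tested were called higher and 7.65% lower. Without D8 replicate 2, of these 4 calls only that of Esrrb held. Ppargc1b, a coactivator of mitochondrial genes, had 1.47 and 2.54 CPM in D3, against 3.59 and 4.57 CPM in D1, and 2.11 and 1.76 CPM in D10, against 5.17 and 5.57 CPM in D8. The treated libraries were below all controls, and it was called in D10 over D8 at -1.48 ± 0.32 (adjusted p = 0.0165) but not in D3 over D1 at -1.02 (adjusted p = 0.073). Esrrb, a nuclear receptor that is also a pluripotency factor, fell, at -1.27 ± 0.14, in D10 over D8 (adjusted p = 0.00157). Myc was called higher in D10 over D8, at 0.75, and Mycn lower, at -0.45. Nrf1, Gabpa and Yy1, which bind the motifs searched above, were not called in either exposure. Nrf1 had log2 fold changes of 0.26 (adjusted p = 0.234) and 0.18 (adjusted p = 0.387), Gabpa of -0.29 and 0.08, and Yy1 of 0.19 and 0.12. Ppargc1a had almost no reads.

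**Figure D5:**
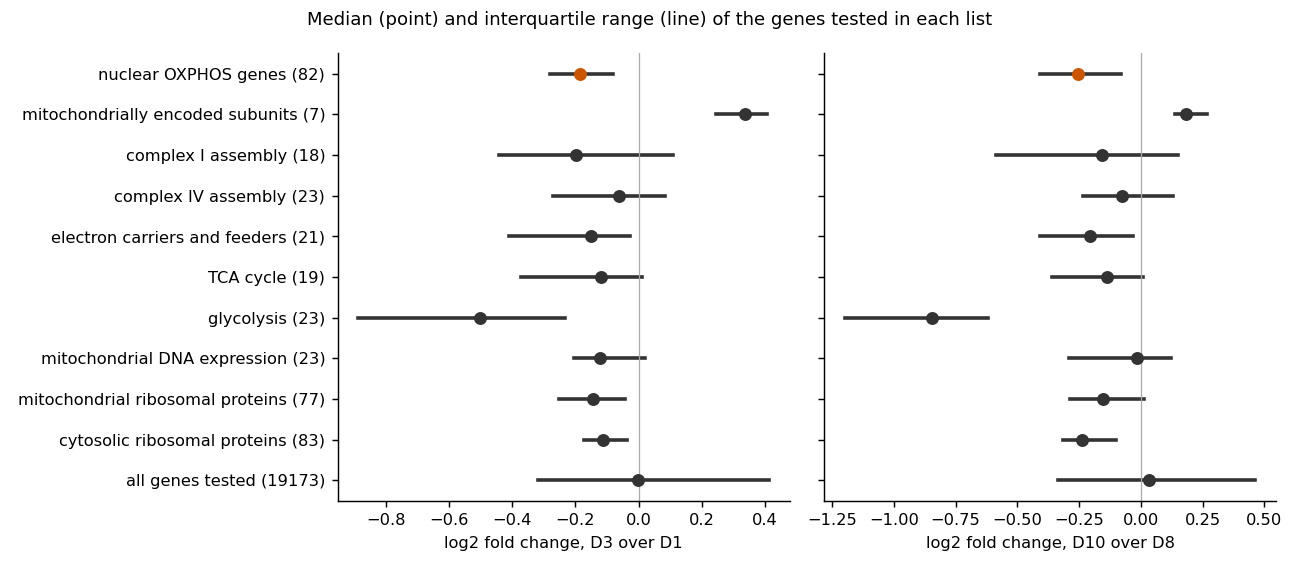
Median (point) and interquartile range (line) of the log2 fold change of the genes tested in each list, D3 over D1 on the left and D10 over D8 on the right, with the number tested in brackets. The nuclear oxidative phosphorylation genes (orange) lie at -0.19 and -0.26, the mitochondrially encoded subunits above 0 (0.01 and -0.50 after correction for GC content and length), and glycolysis lowest.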

How the data were processed

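The data are raw read counts per Ensembl gene in 8 libraries, deposited by the authors as whole numbers with no normalization. Per the submitters' processing notes, reads were handled with bcl2fastq 2.17.1.14, STAR 2.5.0a and featureCounts on build mm10; the featureCounts version, its strand and multiple-match settings and the annotation release are not given in the sources that were used. Every column of the table belongs to the series (0 columns outside it). Symbols and coordinates came from GENCODE M21 by Ensembl identifier (36901 of 36920 matched), and promoters from RefSeq. The genes, lists and the rule for naming genes were chosen with earlier results of these data known. The rule names called genes (up to 8 rises and 8 falls per comparison), the 2 highest genes of each complex, isoform and c subunit genes, complex II, and the 4 uncalled genes with the smallest p. One gene that the rule names is not reported here.

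Genes were kept by filterByExpr (19173), scaled by TMM and tested in R 4.3.3 with edgeR 4.0.16, using 1 quasi-likelihood fit of the 4 groups which left 4 residual degrees of freedom (biological coefficient of variation 19.6%). Tests were 2-sided with Benjamini-Hochberg adjustment over all genes tested, and the script was tested on simulated data. Errors of log2 fold changes are SEs and those of levels are SDs. Log2 CPM used a prior count of 2. Levels per length (RPKM) used the summed exon length. Deeper libraries, up to 40835518 reads, give less counting error than shallower ones, down to 21040992.

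Same-numbered libraries deviated together from their group means over all genes, with correlations of 0.10 to 0.50 in all 6 pairs of groups. Over the oxidative phosphorylation genes the correlation was -0.24 for D3 and D10, and 0.19 to 0.68 for the other pairs. From the values over all genes the numbers were taken to pair the libraries, although no label says what they mark. Alternatives were DESeq2 1.42.0 size factors and its Wald test, 2 other filters, the replicate block, a correction for GC content and length, both together, a fit of only the groups compared, and leaving out each library in turn.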

Additional observations from a re-analysis of the deposited data

How the results depend on the processing

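The direction of the median over the oxidative phosphorylation genes was the same under every alternative for D3 over D1, D10 over D8 and the mean response, but not for D8 over D1 or the difference of responses. Leaving out 1 library gave medians from -0.26 to -0.11 in D3 over D1, from -0.44 to -0.15 in D10 over D8, between -0.072 (without D8 replicate 2) and 0.27 in D8 over D1, from -0.26 to 0.05 in the difference and from -0.32 to -0.18 in the mean response. Calls among these genes then ranged from 1 to 5, from 0 to 32, from 0 to 0, from 0 to 0 and from 4 to 45, and calls among all genes from 387 to 3238, from 1420 to 4304, from 0 to 436, from 0 to 0 and from 3823 to 7140, in the same order. Without a filter on low counts, 6, 17 and 28 of these genes were called in D3 over D1, D10 over D8 and the mean response, and 3847 of all genes in the first, 973 in D8 over D1 and 66 in the difference; that setting moved the median of all genes in the mean response by 0.12. With a CPM of at least 1 in every library, 1 and 2 were called in the exposures, with 1229 and 1762 of all genes, 6 in D8 over D1 and 3409 in the mean response. With the replicate block, 7, 27 and 37 were called, with 4187 and 5298 of all genes in the exposures and 535 in D8 over D1. With the block and the GC and length correction, 13, 28 and 33 were called and 2 in D8 over D1, with 5118, 5667 and 576 of all genes. With only the 2 groups compared, 9 and 2 were called, with 4063, 1465 and 3 of all genes. DESeq2's test called 429 of all genes in D8 over D1 and 3 in the difference, and the GC and length correction alone called 72 in D8 over D1. The mean response of Cox7c reversed to -0.13 with the GC and length correction and to -0.11 with the block added. Some counts of these genes stand here without the count over all genes, such as the 17 and 28 called without a filter. Without that background beside them, they are not a result about these genes. Causes were not tested. The limits are few: each group has 2 libraries, D8 replicate 2 differs from the rest in its GC trend, and genes under about 30 reads, such as Cox4i2 in ML-792 cells, carry large counting error.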
